A study of Mus musculus with 8 samples.

Results

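Hepatocytes break down alcohol and foreign compounds. The 41 genes of this metabolism examined here were chosen by name, with earlier results of these data known. Reduced representation bisulfite sequencing (RRBS) was used to compare DNA methylation along these genes between ages. The livers of 8 female mice of the strain C57Bl6/J were perfused with collagenase to isolate hepatocytes, and each mouse gave 1 library. The mid-aged group of 4 mice was 40 weeks old, and the young group of 4 mice was 10 weeks old. According to the study, the mice of both groups received a control diet. A perfused suspension is enriched in hepatocytes and was not sorted for this assay as far as the labels state, so a change in the mix of cells and a change within a cell cannot be told apart. A CpG was used when the summed strands held at least 5 reads in every mouse and when it lay in the annotated gene or in the 1500 bases upstream of its start. Of the 41 genes, 33 held such CpGs, 743 in number out of 897285 tested across the genome. The other 8 genes (*Adh4*, *Cyp2b10*, *Cyp2c29*, *Cyp4a10*, *Cyp4a14*, *Arnt*, *Gsta3* and *Sult1a1*) had none, and *Cyp3a11* and *Cyp3a13* had 2 and 1.

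Ethanol is oxidized to acetaldehyde by alcohol dehydrogenases, with a further route through the cytochrome P450 enzyme Cyp2e1, and acetaldehyde is oxidized to acetate mainly by the mitochondrial enzyme Aldh2. Foreign compounds are first oxidized, mostly by cytochrome P450 enzymes that receive electrons from the reductase Por, and are then conjugated by glutathione transferases, glucuronosyltransferases and sulfotransferases. Several of these genes, *Cyp1a1* above all, are switched on by the aryl hydrocarbon receptor (AhR, encoded by *Ahr*), which binds DNA together with Arnt and is held back by the repressor Ahrr. In liver, starts of active genes that are rich in CpGs usually carry little methylation, whereas gene bodies are usually methylated.

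Summed over CpGs, the reads numbered 84639955 to 118395064 in the mid-aged and 46321447 to 72710972 in the young libraries, so the depths of the groups did not overlap. Results with reads thinned to the shallowest library are given where they moved a value near the threshold. The mean methylation over all tested CpGs was 43.6% to 44.3% in the 8 mice. Of all reads over CpGs, 24.9% to 39.1% were methylated in the mid-aged and 33.0% to 56.1% in the young libraries. The libraries thus also differed in where their reads fell, and the part of this in the results was not tested. For markers of the cell types of the liver, lists of genes were examined at the gene starts. Start windows with enough CpGs existed for 4 of 15 hepatocyte markers (1.34% to 14.98% in young mice) and for 3 of 15 Kupffer cell and leukocyte markers (68.8% to 89.4%). They also existed for 1 of 11 sinusoidal endothelial (2.66%), 7 of 9 stellate cell (0.994% to 42.7%) and 3 of 7 cholangiocyte markers (1.16% to 75.7%). None of these start windows passed the test for age with limma. The mid-aged minus young differences were 0.157 to 7.65 points for hepatocyte, -5.21 to 4.06 for Kupffer cell and leukocyte, and -0.00561 for sinusoidal endothelial markers. They were -4.34 to 1.34 points for stellate cell and 0.454 to 3.60 for cholangiocyte markers. An unadjusted limma p under 0.05 was reached by 1 leukocyte, 1 stellate cell and 1 cholangiocyte marker.

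No member CpG, stretch, start window or gene body passed the test between mid-aged and young mice. A call needed a Benjamini-Hochberg adjusted p under 0.05 over all features of the genome and a difference of at least 5 percentage points. Single CpGs were tested by a quasi-binomial model with a dispersion moderated by limma, and 0 of 743 member CpGs were called beside 0.163% of all tested CpGs. Limma on M values (log2 ratios of methylated to unmethylated reads) also called 0 of them. Stretches were runs of at least 3 tested CpGs with at most 200 bases between neighbors, tested by limma on the mean percent per mouse, and 0 of 82 member stretches were called beside 0.0784% of all stretches. Start windows reached from 1500 bases upstream to 500 bases downstream of the outermost annotated start, and 0 of 14 were called beside 0.0565%. Gene bodies were the rest of the gene, and 0 of 28 were called beside 0.431% of all gene bodies.

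Below that threshold, more member CpGs were lower than higher in mid-aged mice. Because the members were chosen with earlier results of these data known, the shares in this paragraph describe the list and do not test it. At an unadjusted p under 0.05 with at least 5 points of difference, 57 of 743 member CpGs (7.67%) were lower, beside 2.37% of all tested CpGs, and 19 (2.56%) were higher, beside 3.2%. Of the 57, 15 were in *Aldh2*, 7 in *Cyp1a2* and 6 in *Adh7*, where neighboring CpGs share reads and are not independent. Of the 82 member stretches 9 were lower, beside 2.3% of all stretches, and 1 was higher, beside 2.45%. The stretches were in *Adh1*, *Adh7*, *Aldh1l1*, *Aldh2* (2 stretches), *Aldh3a2*, *Cyp1a2*, *Por* and *Gstm1*, and the higher one was in *Gstz1*. Of the start windows 2 of 14 were lower, beside 0.797%, and 0 were higher, beside 1.23%. Of the gene bodies 4 of 28 were lower, beside 1.83%, and 0 were higher, beside 1.57%. The median difference over the member stretches was 0.11 percentage points, beside 0.281 over all stretches, so the member stretches as a list lay near 0.

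Every mid-aged mouse was below every young mouse in 6 of the 82 member stretches (2.16% of all stretches) and above every young mouse in 2 (3.48% of all stretches). The 6 lower stretches were 2 in *Aldh2* and 1 each in *Adh1*, *Adh7*, *Aldh1l1* and *Por*. The 2 higher stretches, in *Cyp1b1* and *Gstp1*, differed by 1.28 and 1.19 points at levels under 5%.

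**Figure D1:**
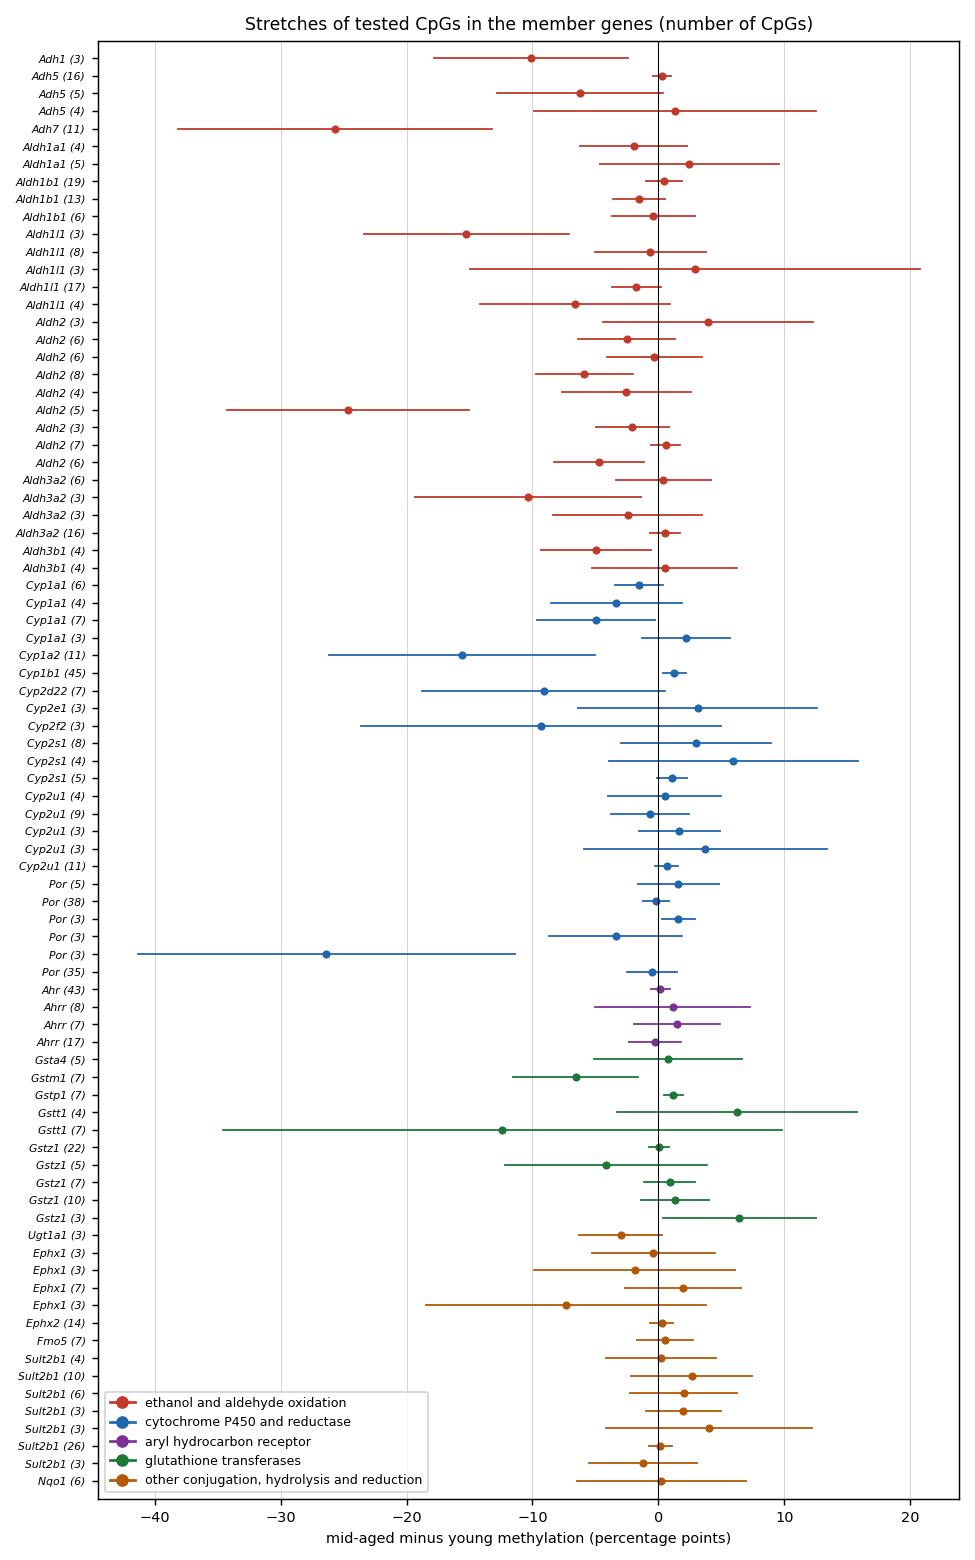
The mid-aged minus young methylation in percentage points (x axis) of the 82 member stretches, 1 row each with the number of CpGs, colored by role. Points are differences of the group means and lines their 95% intervals from limma. Differences ran from -26.4 points in *Por* to 6.44 points in *Gstz1*, and the longest lines belong to stretches of intermediate methylation.

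The methylation of the genes followed the distance from the start. Within 500 bases of the start of the principal transcript (the main protein-coding isoform in GENCODE), 252 member CpGs averaged 3.85% in young and 3.82% in mid-aged mice. Over 2000 bases downstream of it, 300 CpGs averaged 77.4% in young and 74.5% in mid-aged mice. By place in the principal transcript, the young mean was 15.7% for 201 upstream CpGs, 1.40% for 84 in 5′ UTRs, 52.5% for 181 in coding exons, 56.7% for 246 in introns and 94.6% for 9 in 3′ UTRs. The other 22 lay past the end of the principal transcript, in longer annotated forms of the gene. Of the member CpGs 47.8% were under 10% in young mice and 24.8% over 90%, beside 45.1% and 27.3% of all tested CpGs.

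**Figure D2:**
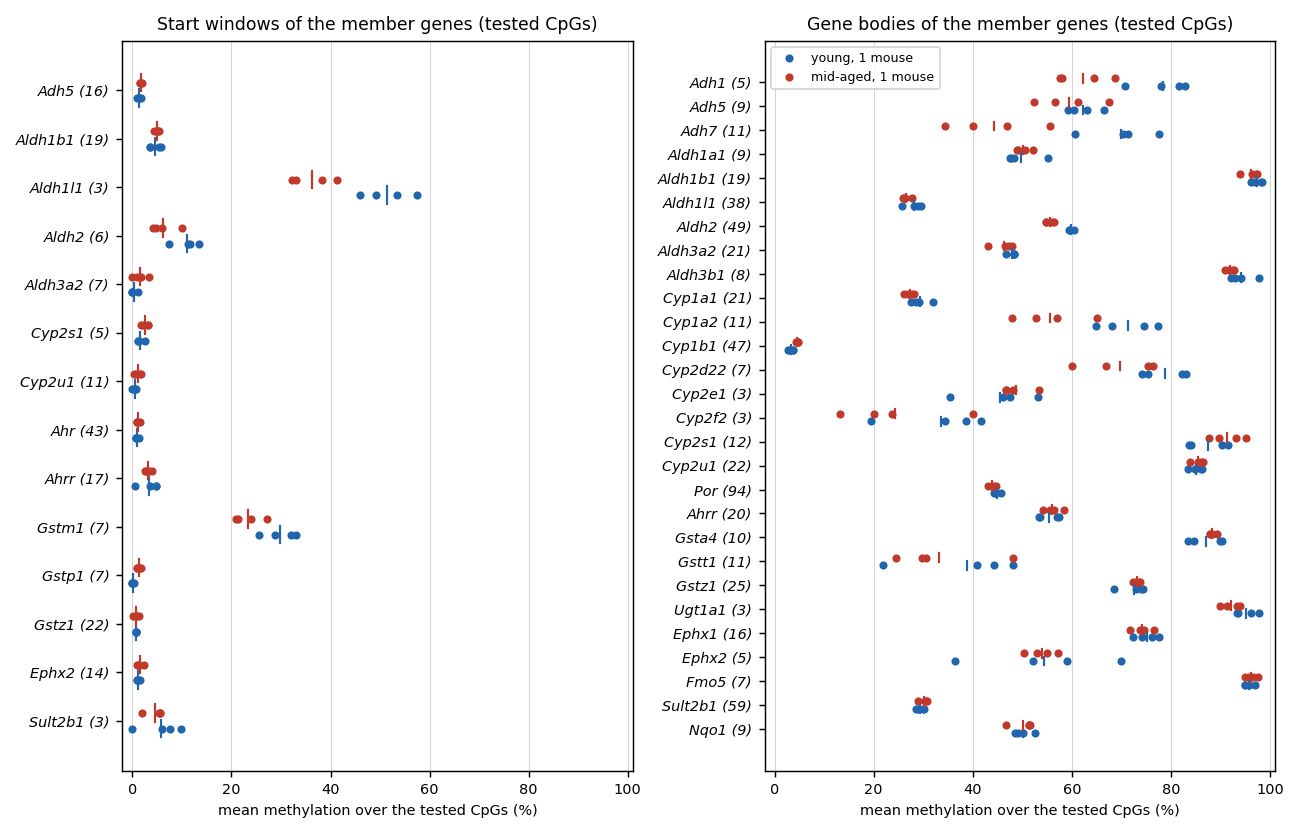
Mean methylation in percent (x axis) over the tested CpGs of each start window (left, 14 genes) and gene body (right, 28 genes), with the number of CpGs after the gene name. Each point is 1 mouse and each tick a group mean. Gene bodies were counted from the outermost annotated start, so a principal start farther inside the gene is part of the body. The group means of the start windows lay at or below 11% except those of *Aldh1l1* and *Gstm1*, and those of the gene bodies ran from 3.30% (*Cyp1b1*, young) to 97.4% (*Aldh1b1*, young).

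The 10 genes of ethanol and aldehyde oxidation held 222 tested CpGs in 9 genes and 30 stretches. At an unadjusted p under 0.05 with at least 5 points of difference, 32 of these CpGs (14.4%) were lower in mid-aged mice and 4 (1.80%) higher, beside 2.37% and 3.2% of all tested CpGs. Of the 32, 15 were in *Aldh2*, 6 in *Adh7*, 4 in *Aldh1l1* and 3 in *Adh1*, where neighboring CpGs share reads and are not independent. The median difference over the stretches of this group was -1.86 points. *Adh1*, the main hepatic alcohol dehydrogenase gene, had 7 tested CpGs, none of them in the 500 bases before the principal start. Its gene body, measured by 5 CpGs, was methylated at 58.0%, 64.4%, 57.6% and 68.8% in the mid-aged mice and at 81.7%, 70.7%, 82.8% and 78.0% in the young mice. Each mid-aged mouse was thus below each young mouse. The means were 62.2% ± 5.39 (SD, n = 4) and 78.3% ± 5.44 (SD, n = 4), that is, a difference of -16.1 points (95% interval -23.9 to -8.28; limma adjusted p = 0.102). *Adh5*, which encodes the glutathione-dependent formaldehyde dehydrogenase, was at 1.67% in the mid-aged and 1.36% in young mice over 16 CpGs of its start window.

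*Adh7* encodes the class IV alcohol dehydrogenase, known from stomach rather than liver, and held the largest stretch difference of this group. Its 11 tested CpGs lay in coding exon 5 of 9 and the following intron, within chr3:138223961-138224154 of mm10 (gene on the forward strand at chr3:138217760-138233382, overlapped by 0610031O16Rik). The sequence is shown on the forward strand because the CpGs, in capitals, together carry the difference.
Adh7: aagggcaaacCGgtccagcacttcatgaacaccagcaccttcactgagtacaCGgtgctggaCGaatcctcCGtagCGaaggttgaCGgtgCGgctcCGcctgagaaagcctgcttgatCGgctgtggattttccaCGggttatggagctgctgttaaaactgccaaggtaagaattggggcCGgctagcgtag
The mean over these CpGs was 40.1%, 34.5%, 55.7% and 46.8% in the mid-aged mice. In the young mice it was 77.7%, 71.3%, 70.2% and 60.6%. The groups did not overlap, with means of 44.3% ± 9.13 (SD, n = 4) and 70.0% ± 7.04 (SD, n = 4). The difference of -25.7 points had a 95% interval of -38.2 to -13.2 and a limma adjusted p of 0.200 as a stretch and 0.0825 as a gene body. At the CpG with the fewest reads, a mouse had 8.

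*Aldh2*, on the reverse strand at chr5:121566027-121593824, had the most measurements near the threshold. Its gene body, named after its values were seen, held 49 tested CpGs. They averaged 56.1%, 54.9%, 56.3% and 54.8% in the mid-aged mice. In the young mice they averaged 59.5%, 60.5%, 59.7% and 59.6%. The mice of a group lay within 1.54 points in the mid-aged and 1.001 points in young mice, and the groups did not overlap. The means of 55.5% ± 0.801 (SD, n = 4) and 59.8% ± 0.454 (SD, n = 4) differed by -4.29 points (95% interval -5.83 to -2.75). The limma adjusted p was 0.0440, which 0.508% of all gene bodies passed at any size of difference, but the size was under the 5 points set for a call. With the reads of the CpGs pooled, which weights deep CpGs more, the difference was -15.1 points with a limma adjusted p of 0.238. These weights differed between the groups. The 7 CpGs at 685 to 867 bases past the start held 7188 mid-aged and 3747 young reads. The 8 CpGs around exon 4 held 2948 and 2762. The pooled value therefore also carries where the reads fell and is not a larger estimate of the same difference. With thinned reads the adjusted p was 0.131, and without any 1 of the 8 mice it was 0.0809 to 0.149. The gene body difference was uneven along the gene. A stretch of 8 CpGs around exon 4 was at 81.4% ± 0.894 (SD, n = 4) in the mid-aged and 87.3% ± 2.02 (SD, n = 4) in the young mice, without overlap (adjusted p = 0.367). The 7 CpGs at 685 to 867 bases past the start were at 2.02% and 1.45%.

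A stretch of 5 CpGs in intron 1 of *Aldh2*, singled out after its values were seen, had the lowest adjusted p of the member stretches. It lies 5911 to 5978 bases past the start, in letters that the reference marks as repeat, and is shown with its CpGs in capitals (chr5:121587836-121587924 of mm10, forward strand).
Aldh2 intron 1: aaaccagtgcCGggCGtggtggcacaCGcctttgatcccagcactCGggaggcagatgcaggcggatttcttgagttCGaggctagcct
The mid-aged mice were at 48.0%, 58.9%, 56.4% and 42.6%. The young mice were at 74.1%, 75.0%, 79.8% and 75.6%, all above the mid-aged mice. The means of 51.5% ± 7.51 (SD, n = 4) and 76.1% ± 2.51 (SD, n = 4) differed by -24.6 points (95% interval -34.3 to -15.0; limma adjusted p = 0.112). One mid-aged mouse had 5 reads at each of these CpGs, and the part of reads from other copies of the repeat was not tested. On the log2 ratio scale of pooled reads the adjusted p was 0.0418, and it was 0.430 with thinned reads.

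The start window of *Aldh2* was measured by 6 CpGs at 409 to 569 bases upstream of the start, in a segment that Gm42879 also covers. Among them was the CpG with the lowest adjusted p among member CpGs (chr5:121594223-121594404, forward strand, CpGs in capitals).
Aldh2 upstream: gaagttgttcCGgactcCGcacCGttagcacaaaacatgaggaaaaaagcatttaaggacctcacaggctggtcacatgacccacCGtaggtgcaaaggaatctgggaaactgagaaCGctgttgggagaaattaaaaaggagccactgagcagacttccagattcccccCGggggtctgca
Over the 6 CpGs the mid-aged mice were at 4.25%, 4.85%, 10.1% and 5.89% and the young mice at 11.3%, 13.5%, 11.7% and 7.35%. Mid-aged mouse 3 was above young mouse 4, so the groups overlapped. The means of 6.26% ± 2.63 (SD, n = 4) and 10.96% ± 2.58 (SD, n = 4) differed by -4.69 points (95% interval -8.40 to -0.982; limma adjusted p = 0.441). The CpG at 416 bases upstream was at 5.72% ± 2.84 (SD, n = 4) in the mid-aged and 13.6% ± 2.94 (SD, n = 4) in the young mice, with 63 to 434 reads per mouse and a quasi-binomial adjusted p of 0.0805. Without mid-aged mouse 3 its adjusted p was 0.0283, and without young mouse 1 it was 0.0130. It was not called without any other single mouse, with thinned reads, with the replicate numbers as a block or with limma on M values.

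**Figure D3:**
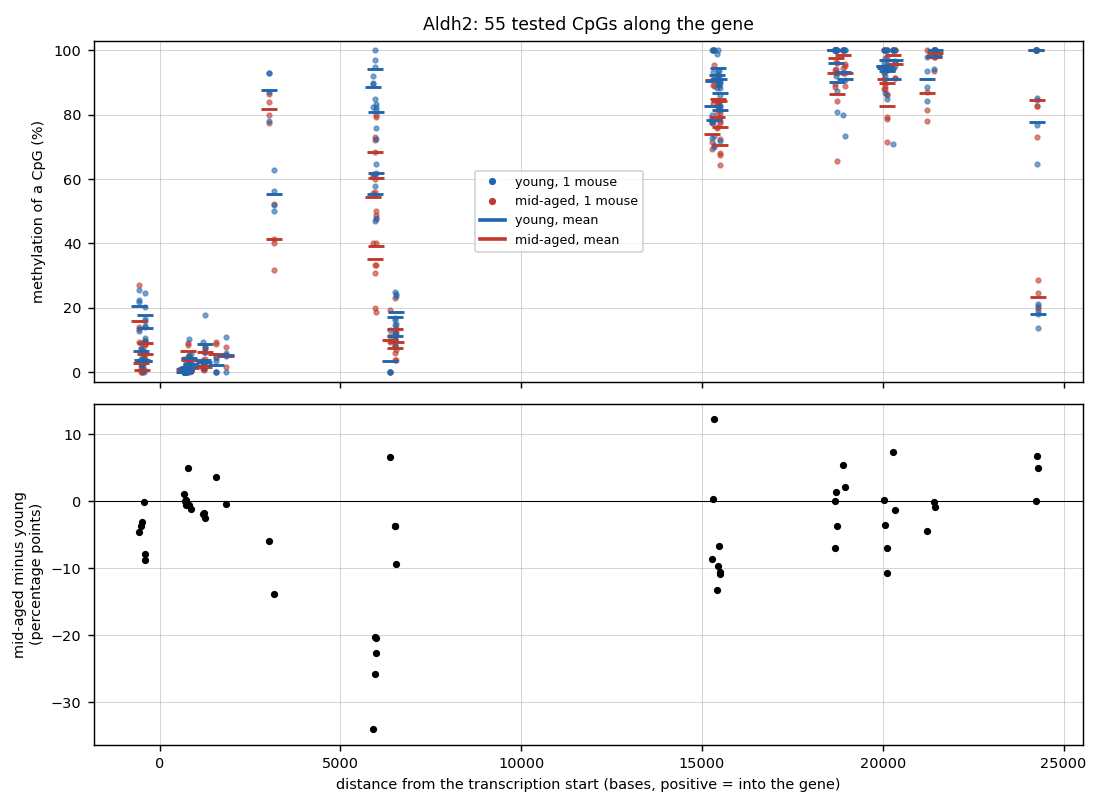
Methylation in percent of the 55 tested CpGs of *Aldh2* (upper panel; 1 point per mouse, bars for the group means) and the mid-aged minus young difference in percentage points (lower panel) against the distance from the start in bases. CpGs between 685 and 1830 bases past the start lay under 10% in the group means, and those from exon 4 onward were mostly over 70%. The largest differences, down to -34.0 points, were in the intron 1 stretch, 5911 to 5978 bases past the start.

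Among the other aldehyde dehydrogenase genes, *Aldh1b1*, *Aldh1l1* and *Aldh3a2* carried little methylation at their principal starts in both groups. The bodies of *Aldh1l1* and *Aldh3a2* were counted from the outermost annotated start and hold CpGs at the principal start. Their levels are therefore not comparable with that of *Aldh1b1*. *Aldh1b1*, a mitochondrial aldehyde dehydrogenase, was at 5% in the mid-aged and 4.54% in young mice over 19 CpGs of its start window and at 96.2% and 97.4% over 19 CpGs of its body. *Aldh1l1* encodes a folate-dependent formyltetrahydrofolate dehydrogenase and was at 3.05% and 4.80% over 17 CpGs at its principal start. Its 38 body CpGs, these 17 among them, were at 26.5% and 28.1%. The outermost annotated start of *Aldh1l1* lies 64378 bases farther upstream, and its window of 3 CpGs was at 41.3%, 38.3%, 33.1% and 32.2% in the mid-aged mice. The same window was at 45.9%, 49.1%, 57.5% and 53.4% in the young mice, without overlap. This window, named after its values were seen, differed by -15.3 points (95% interval -22.4 to -8.10; limma adjusted p = 0.192). *Aldh3a2*, for fatty aldehydes, was at 0.931% and 0.381% over 16 CpGs at its principal start. Its 21 body CpGs, which include part of these 16, were at 46.2% and 47.9%. *Aldh3b1* was at 92.0% and 94.2% over its 8 body CpGs, and *Aldh1a1*, for retinaldehyde, at 50.2% and 49.7% over 9 CpGs, the 9 lying in a long annotated form of the gene that starts 109246 bases before the principal start.

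The 15 genes of cytochrome P450 enzymes and their reductase held 239 tested CpGs in 11 genes. By the same criterion 18 of them (7.53%) were lower and 5 (2.09%) higher, beside 2.37% and 3.2% of all tested CpGs. Of the 18, 7 were neighbors in *Cyp1a2*. The median difference over 23 stretches was 0.494 points. The gene of the ethanol-oxidizing *Cyp2e1* was covered by 3 tested CpGs in intron 2, with 46.7%, 46.7%, 48.0% and 53.4% in the mid-aged mice. The young mice were at 47.6%, 35.3%, 46.1% and 53.3%, within and around the range of the mid-aged mice. The means of 48.7% ± 3.19 (SD, n = 4) and 45.6% ± 7.496 (SD, n = 4) differed by 3.12 points (95% interval -5.14 to 11.4; limma adjusted p = 0.795). The sign of this difference turned to -0.300 points without young mouse 2, and its size was 1.55 points without mid-aged mouse 4, 5.68 without young mouse 4 and 0.514 with thinned reads.

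*Cyp1a2*, a hepatic monooxygenase known for the turnover of caffeine, lies on the reverse strand at chr9:57676937-57683703. Its 11 tested CpGs are in coding exon 2 of 7, at 1300 to 1828 bases past the start. The mid-aged mice were at 47.9%, 57.0%, 52.8% and 64.99% and the young mice at 64.95%, 77.4%, 68.2% and 74.5%. The highest mid-aged mouse met the lowest young mouse. The means of 55.7% ± 7.23 (SD, n = 4) and 71.3% ± 5.71 (SD, n = 4) differed by -15.6 points (95% interval -25.0 to -6.27; limma adjusted p = 0.181 for the gene body). The 6 CpGs farthest from the start were covered by as few as 5 reads in a mouse, and 5 of them had an unadjusted p under 0.05. They are shown in capitals (chr9:57681865-57682007, forward strand).
Cyp1a2: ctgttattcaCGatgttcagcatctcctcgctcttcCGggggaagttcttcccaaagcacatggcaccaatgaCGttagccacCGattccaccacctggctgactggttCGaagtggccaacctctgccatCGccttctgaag

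*Por*, the reductase that passes electrons to the microsomal P450 enzymes, had 94 tested CpGs, the most of the members. Its principal start was at 1.24% ± 0.332 (SD, n = 4) in the mid-aged and 1.44% ± 0.768 (SD, n = 4) in the young mice over 38 CpGs, and its whole body at 44.0% and 44.8%. Among the P450 group the largest stretch difference was that of 3 CpGs in intron 2 of *Por*, 38394 to 38444 bases past the principal start (chr5:135727420-135727491, forward strand, CpGs in capitals).
Por: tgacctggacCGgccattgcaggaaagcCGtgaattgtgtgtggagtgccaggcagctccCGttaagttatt
The mid-aged mice were at 14.3%, 28.5%, 32.1% and 32.3%. The young mice were at 65.4%, 35.5%, 53.2% and 58.5%, above the mid-aged mice in each case. The means of 26.8% ± 8.52 (SD, n = 4) and 53.2% ± 12.8 (SD, n = 4) differed by -26.4 points (95% interval -41.4 to -11.4; limma adjusted p = 0.285).

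**Figure D4:**
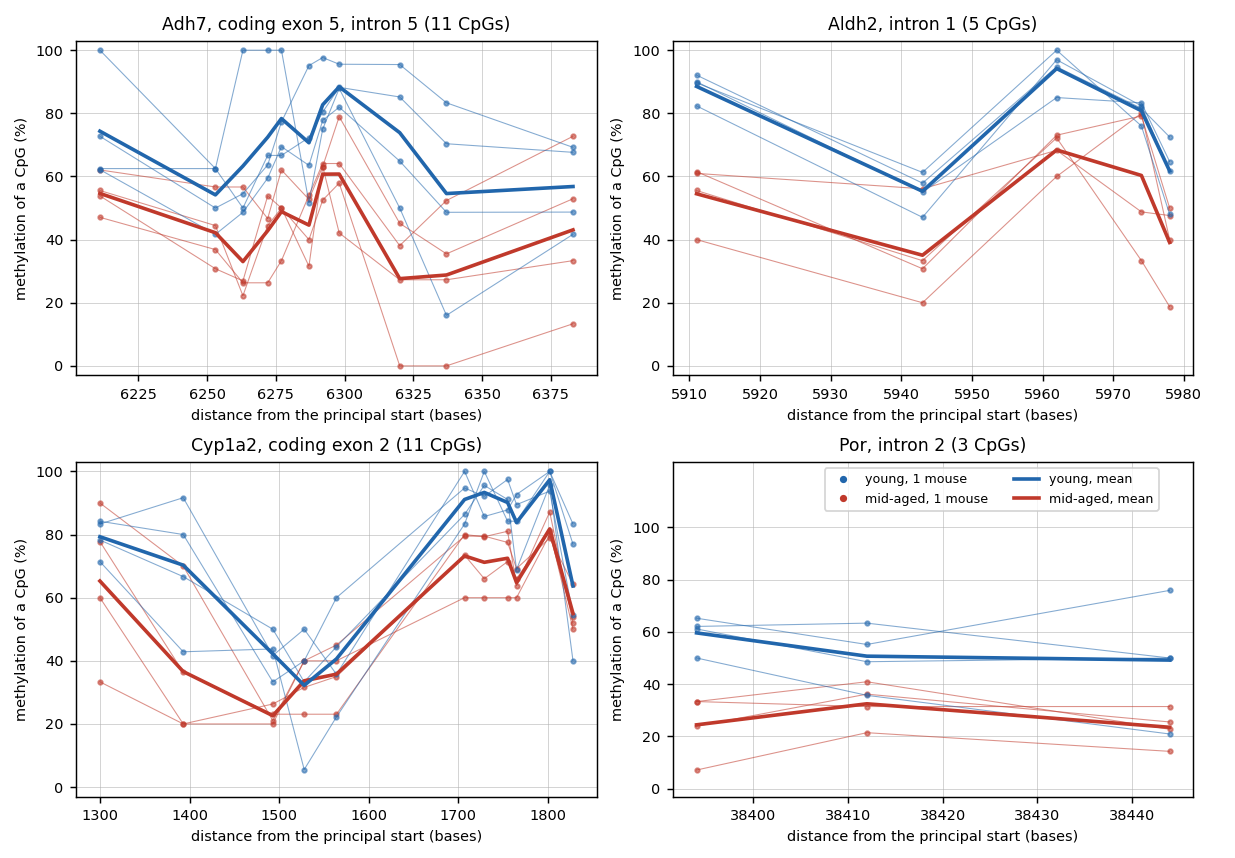
Methylation in percent (y axis) of each CpG in the stretches of *Adh7*, *Aldh2* intron 1, *Cyp1a2* and *Por* against the distance from the principal start in bases (x axis). Thin lines are single mice and thick lines group means. The mean of the mid-aged mice was below that of the young mice at each CpG except 1 of *Cyp1a2*.

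*Cyp1b1*, an extrahepatic P450 gene with little expression in hepatocytes, carried low methylation in its body. Over 47 CpGs, 45 of them in a dense stretch across intron 2 and exon 2, the mid-aged mice were at 4.70%, 4.45%, 4.30% and 4.68%. The young mice were at 2.74%, 3.74%, 2.93% and 3.77%, each below each mid-aged mouse. The means of 4.53% ± 0.193 (SD, n = 4) and 3.30% ± 0.536 (SD, n = 4) differed by 1.24 points (95% interval 0.489 to 1.98; limma adjusted p = 0.186). *Cyp2u1* and *Cyp2s1* had unmethylated starts (1.09% and 2.56% in mid-aged, 0.428% and 1.48% in young mice) and bodies at 85.5% and 91.4% in mid-aged against 85.2% and 87.4% in young mice. *Cyp2d22*, a relative of the human debrisoquine hydroxylase, was at 69.6% and 78.8% over 7 body CpGs, and *Cyp2f2* at 24.2% and 33.5% over 3, with limma adjusted p values of 0.430 and 0.644.

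*Cyp1a1*, the P450 gene most strongly induced through AhR, had 21 tested CpGs and no window at its outermost annotated start. In its body, as annotated, they averaged 26.9%, 26.2%, 27.8% and 28.2% in the mid-aged mice and 32.0%, 28.6%, 29.1% and 27.6% in the young mice. Young mouse 4 lay within the range of the mid-aged mice. The means of 27.3% ± 0.901 (SD, n = 4) and 29.3% ± 1.88 (SD, n = 4) differed by -2.04 points (95% interval -4.27 to 0.197; limma adjusted p = 0.479), or by -8.21 points with pooled reads (adjusted p = 0.369) and by -1.15 points without young mouse 1. The shorter principal transcript starts 9685 bases inside the annotated gene, and 17 of the CpGs lie 151 to 1118 bases upstream of that start. There the mice were at 11.3% ± 0.843 (SD, n = 4) and 14.7% ± 2.07 (SD, n = 4), that is, a difference of -3.38 points (95% interval -5.93 to -0.831; limma adjusted p = 0.419).

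The core of the DNA element bound by AhR with Arnt is GCGTG, which holds a CpG and was searched on both strands. In the region upstream of *Cyp1a1* it covered 2 tested CpGs, shown in capitals with their surroundings (chr9:57696538-57696569 and chr9:57697107-57697138, forward strand; on this strand the second match reads CACGC).
Cyp1a1 -1060: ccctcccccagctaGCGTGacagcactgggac
Cyp1a1 -491: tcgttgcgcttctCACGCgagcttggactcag
The CpG 1060 bases upstream of the principal start was at 1.91% ± 2.21 (SD, n = 4) in the mid-aged and 0.275% ± 0.549 (SD, n = 4) in the young mice. At the CpG 491 bases upstream, 0 of 195 reads in the mid-aged and 0 of 205 reads in young mice were methylated, and 3 reads of these totals would be a level of 1.54% and 1.46%, the limit that counting allows. Closer to the start, the CpG at 420 bases upstream was at 24.9% ± 8.35 (SD, n = 4) in the mid-aged and 47.2% ± 3.33 (SD, n = 4) in the young mice, without overlap (quasi-binomial adjusted p = 0.115). That at 151 bases upstream was at 69.4% and 64.4%, so in both groups methylation went from near 0 to a majority of reads between these positions.

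**Figure D5:**
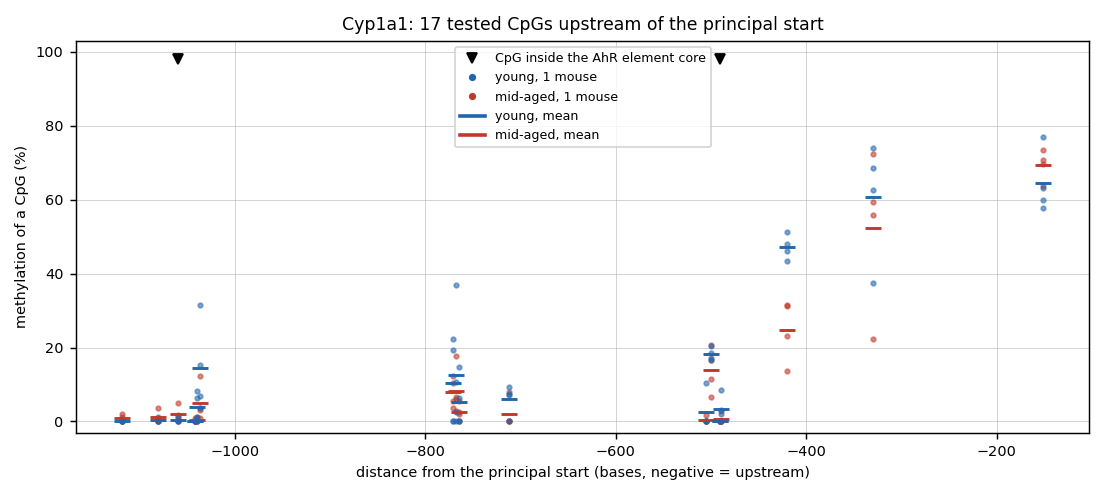
Methylation in percent (y axis) of the 17 tested CpGs upstream of the principal start of *Cyp1a1* against their distance from it in bases (x axis), with 1 point per mouse and a bar for each group mean. Triangles mark the 2 CpGs inside the AhR element core, both under 2% in the group means, while the 3 CpGs nearest to the start were between 24.9% and 69.4%.

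The genes of the receptor itself were measured best at their starts. *Ahr* was at 0.893%, 0.875%, 0.927% and 1.46% in the mid-aged and at 0.664%, 1.28%, 0.794% and 0.752% in the young mice over 43 CpGs of its start window, which Gm48236 also covers. The ranges overlapped, and the difference was 0.166 points (95% interval -0.336 to 0.668; limma adjusted p = 0.863). Without 1 of the mice the difference was 0.0261 points (mid-aged mouse 4) to 0.302 points (young mouse 2). A difference of the 5 points set for a call lies outside the interval. The start window of *Ahrr*, over 17 CpGs, was at 2.69%, 3.29%, 4.04% and 2.58% in the mid-aged and at 0.520%, 4.74%, 3.60% and 4.67% in young mice. Its difference of -0.231 points (95% interval -2.34 to 1.87; limma adjusted p = 0.961) was within the spread of the young mice, and with thinned reads it was 0.688 points. Without 1 of the mice it was -1.18 points (young mouse 1) to 0.221 points (young mouse 2). Intron 1 of *Ahrr*, 597 to 949 bases past the start, was at 85.3% ± 0.518 (SD, n = 4) in the mid-aged and 83.8% ± 1.05 (SD, n = 4) in the young mice, the largest difference of the receptor stretches (1.51 points, 95% interval -1.90 to 4.92; limma adjusted p = 0.834). *Arnt* had reads at 50 CpGs, but none reached 5 reads in each mouse.

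The 6 glutathione transferase genes held 84 tested CpGs in 5 genes. At an unadjusted p under 0.05 with at least 5 points of difference 2 (2.38%) were lower and 2 higher, near the 2.37% and 3.2% of all tested CpGs. *Gstp1*, the pi class gene, had a start window at 1.51%, 0.969%, 1.79% and 0.893% in the mid-aged mice and at 0, 0, 0 and 0.386% in the young mice over 7 CpGs (difference 1.19 points, 95% interval 0.650 to 1.74; limma adjusted p = 0.181). *Gstz1*, for the catabolism of tyrosine, was at 0.772% and 0.700% over 22 CpGs that also belong to *Pomt2*, and at 73.2% and 72.5% in its body. *Gstm1*, a mu class gene abundant in liver, was at 20.8%, 23.9%, 27.1% and 21.2% in the mid-aged mice over 7 CpGs upstream of its start. The young mice were at 32.0%, 33.0%, 28.8% and 25.5%, and the lowest of them was below mid-aged mouse 3. The difference of -6.58 points had a 95% interval of -11.5 to -1.67 and a limma adjusted p of 0.415. A CpG of this window lies in the AhR element core 657 bases upstream of the start (chr3:108018615-108018646, forward strand, the core in capitals).
Gstm1 -657: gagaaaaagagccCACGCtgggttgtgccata
It was at 12.2% ± 2.66 (SD, n = 4) in the mid-aged and 30.2% ± 9.74 (SD, n = 4) in the young mice, with 41 to 98 reads per mouse and no overlap (quasi-binomial adjusted p = 0.277). *Gstt1*, the theta class gene, had the largest stretch difference of the transferases, over 7 CpGs around exon 3. The mid-aged mice were at 23.1%, 38.8%, 43.5% and 61.3% and the young mice at 59.4%, 69.6%, 30.0% and 57.4%. The mice of both groups were spread over the same range, and the difference of -12.4 points had a 95% interval of -34.6 to 9.83 (limma adjusted p = 0.788). It was -6.20 points without mid-aged mouse 1, -7.23 without young mouse 2, -18.9 without mid-aged mouse 4 and -20.4 without young mouse 3.

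The 7 genes of other conjugation, hydrolysis and reduction held 116 tested CpGs in 6 genes. By that criterion 4 (3.45%) were lower and 5 (4.31%) higher, near the 2.37% and 3.2% of all tested CpGs. *Ugt1a1*, the bilirubin glucuronosyltransferase, was at 92.1% and 95.2% over 3 CpGs of its last exon, which the other *Ugt1a* genes share. The flavin monooxygenase gene *Fmo5* was at 96.2% and 95.7% over 7 CpGs, and *Nqo1*, a quinone reductase, at 50.2% and 50.1% over 9. *Ephx2*, the soluble epoxide hydrolase, was at 1.45% and 1.199% over 14 CpGs of its start window. *Sult2b1*, a sulfotransferase for hydroxysteroids, was at 30.1% and 29.4% over 59 body CpGs. These include 16 at its principal start (18.0% and 15.6%) and a stretch of 26 farther upstream (1.38% and 1.24%). That stretch lies 23913 to 24366 bases before the principal start, and *Lmtk3* also covers at least its CpG at 24132 bases. The largest stretch difference of this group was in intron 1 of *Ephx1*, the microsomal epoxide hydrolase, over 3 CpGs. The mid-aged mice were at 2.78%, 13.3%, 10.9% and 15.3%. The young mice were at 13.1%, 5.41%, 25.4% and 27.8%, overlapping the mid-aged mice. The difference of -7.35 points had a 95% interval of -18.5 to 3.76 (limma adjusted p = 0.742). It was -4.74 points without mid-aged mouse 1, -4.85 without young mouse 3, -4.07 without young mouse 4 and -11.5 without young mouse 2.

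Genes without enough reads were read at CpGs with at least 5 reads in 3 or more mice of each group, with no test. *Arnt* was at 88.4% in the mid-aged and 86.1% in young mice over 7 such CpGs. *Cyp4a10*, a fatty acid hydroxylase gene, was at 97.3% and 90.7% over 2, and *Cyp2b10*, the gene known for induction by phenobarbital, at 91.1% and 81.9% over 1. *Cyp3a11*, the main drug-metabolizing Cyp3a gene of mouse liver, was at 96.3% and 86.0% over 3, of which 2 were tested. *Adh4*, *Cyp2c29*, *Cyp4a14*, *Gsta3* and *Sult1a1* had no such CpG.

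A list of 133 other genes of the same pathways (further dehydrogenases, P450 enzymes, transferases, nuclear receptors and transporters) was examined in the same way. In it, 99 genes held 2646 tested CpGs, of which 4 were called lower and 0 higher (0.151%, beside 0.163% of all tested CpGs). Of 239 stretches 1 was called lower (0.418%, beside 0.0784%), of 58 start windows 0 (beside 0.0565%), and of 73 gene bodies 1 (1.37%, beside 0.431%). The gene body was that of *Cat*, which encodes catalase, an enzyme of hydrogen peroxide breakdown that can also oxidize ethanol. Over 14 CpGs the mid-aged mice were at 27.8%, 25.5%, 25.8% and 30.4% and the young mice at 45.0%, 41.7%, 40.6% and 41.6%, without overlap. The means of 27.4% ± 2.23 (SD, n = 4) and 42.2% ± 1.93 (SD, n = 4) differed by -14.8 points (95% interval -17.9 to -11.8; limma adjusted p = 0.00436). The 2 called CpGs of this gene, in coding exon 2, were at 18.4% ± 3.88 and 22.04% ± 6.02 (SD, n = 4) in the mid-aged and 54.7% ± 20.3 and 50.5% ± 7.65 (SD, n = 4) in the young mice. The start window of *Cat* was at 1.52% and 0.695%. The other called CpGs were in coding exon 8 of *Cyp4f14*, a P450 gene for leukotrienes and fatty acids (30.9% against 62.0%, quasi-binomial adjusted p = 0.0232), and in intron 29 of *Abcc2*, the gene of the canalicular export pump (58.9% against 88.4%, adjusted p = 0.0073).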

How the data were processed

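RRBS was performed on hepatocytes of 4 mid-aged and 4 young mice. The authors deposited 1 file per mouse, in which each covered strand of a CpG on mm10 has a percent of methylated reads and a read count (the coverage), with no normalization; the DEEP pipeline MCSv3 made these values. In the submitters' processing notes the tools are BWA 0.6.2, Picard 1.115, SAMtools 1.3, FastQC and Trim Galore 0.4.2. For the methylation caller, no name is given in the sources used here. RRBS cuts DNA at MspI sites (CCGG) and reads the fragment ends, so CpGs far from such sites are missed.

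Methylated reads were computed as percent times coverage, which was whole for all entries, and strands were summed. Tested CpGs had a median of 29 to 76 reads in a mouse. No pair of libraries shared more than 0.961% of its counts. Genes came from GENCODE vM21 and sequences from the GRCm38 genome through pysam 0.24.0. Gene IDs follow that annotation.

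CpGs were compared by a quasi-binomial F test on the methylated and unmethylated reads, with a dispersion moderated by limma 3.58.1 (R 4.3.3) and not below 1, leaving the 42161 CpGs with dispersion 0 out of the moderation. A called CpG also needed a variance of the methylated fraction under 0.05 in both groups. Stretches, start windows and gene bodies holding 3 or more tested CpGs were fitted by limma with a trend, on the mean percent per mouse. All p-values are two-sided, adjusted by Benjamini-Hochberg over the whole genome. The tests were also run on simulated reads at the real coverages, and no result given here rests on that check. Intervals and read limits cover the spread between 4 mice or counting error, and PCR copies carry no molecular identifiers.

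The members, lists and tests were chosen with earlier results of these data known. Values per mouse were given for *Adh1*, *Aldh2*, *Cyp2e1*, *Ahr*, *Ahrr*, *Cyp1a1*, *Cyp1a2* and *Cyp1b1* (at the start window or, failing that, the gene body) and for the stretch with the largest difference of each role. The *Aldh2* gene body and other start windows, stretches and single CpGs were named after their values were seen. Alternatives were the coverage minimum, thinned reads, a replicate block, leaving out each mouse, pooled reads, a log2 ratio scale, limma on M values, other windows, gaps and moderation. The start of the principal transcript and adjusted p without a minimum difference were added after seeing the data. Other data of the study were not used here.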

Additional observations from a re-analysis of the deposited data

Results flagged for a closer look

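Over the 15 values given per mouse, 30 groups of 4 mice were examined for a mouse apart from the others of its group. In the start window of *Ahr*, mid-aged mouse 4 was at 1.459% while the other mid-aged mice were at 0.875% to 0.927%. Its gap to the next mouse was 0.912 of the range of the group, above Dixon's critical value for 4 samples. Chance flags about 1 in 20 such groups, and the level is close to 0 in each mouse.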

How the results depend on the processing

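No start window of a member was called under any of the 17 alternatives. Calls among member CpGs ran from 0 to 3 when 1 mouse was left out. They were 1 without mid-aged mouse 3 (*Aldh2*), 3 without young mouse 1 (2 in *Aldh2*, 1 in *Sult2b1*) and 1 without young mouse 4 (*Aldh2*), and 0 under the other alternatives. On the log2 ratio scale of pooled reads 1 member stretch was called, the *Aldh2* intron 1 stretch, at -24.6 points. With adjusted p alone and no minimum difference, 1 gene body passed, *Aldh2*. The cause of these changes was not tested. Over the genome the calls depended more on the setting: CpGs 1466 in the main analysis and 0 to 2405 over the alternatives, stretches 72 and 1 to 121, start windows 10 and 0 to 10, gene bodies 79 and 13 to 102. Of 210 alternative values of the 15 differences given per mouse, 4 turned in sign, at levels where the groups overlapped: *Ahrr* at its start was 0.688 with thinned reads and -1.18 to 0.221 when 1 mouse was left out, and *Cyp2e1* was -0.300 to 5.68 when 1 mouse was left out.

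The labels number the mice 1 to 4 in both groups, but do not say that a number marks a shared litter or day. Deviations of same-numbered mice from their group means correlated at -0.00112 to 0.00399 over 17811 stretches of intermediate methylation. Mice with different numbers correlated at -0.0184 to 0.0108. A shared litter or day need not leave such a correlation, so whether the numbers mark pairs cannot be told from these values. With the replicate block the member calls were 0 for CpGs, 0 for stretches, 0 for start windows and 0 for gene bodies, and the *Aldh2* gene body had an adjusted p of 0.224.

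The 95% interval of a member stretch reached to either side of the difference by 4.40 points at the median and 22.2 points at most. The median was 1.19 points for stretches under 10% in young mice and 8.96 points for those at 20% to 80%. These intervals are not adjusted for the number of stretches, so they do not give the size of difference that a call needed. The *Aldh2* intron 1 stretch, at -24.6 points, was not called.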

Other observations

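The AhR element core GCGTG, searched on both strands, covered 29 of the 743 tested member CpGs (3.90%), beside 3.28% of all tested CpGs. These 29 CpGs averaged 33.6% in young and 31.3% in mid-aged mice. Of them, 18 (62.1%) were under 10% in young mice, beside 47.2% of the other member CpGs. Over all tested CpGs, the share under 10% was 47.6% inside the core and 45.0% outside it. The other 714 member CpGs averaged 39.9% and 38.5%. By place, 7 of the 29 were in 5′ UTRs, 8 upstream of the principal start and 9 in introns. The starts of *Ahr*, *Por* and *Adh5* held such CpGs at or below 2.09% in the means of both groups. Others near a start were higher in young mice, up to 5.24% in *Ahrr* and 7.98% in *Aldh1b1*, and 30.2% upstream of *Gstm1*. Intron 1 of *Aldh2* held 3 of the 29. Those at 5974 and 5962 bases past the start were at 80.8% and 94.2% in young against 60.3% and 68.4% in mid-aged mice, and the one at 734 bases was at 1.15% and 0.635%. A match is a description of the letters and does not show that AhR binds there.

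Among member CpGs at 20% to 80% in young mice, the median SD between mice was 9.79 points in mid-aged and 13.1 points in young mice (89 CpGs). Over all tested CpGs of that range it was 7.42 and 11.3 points (126769 CpGs). The range was set by the young mean alone, so mid-aged means can lie outside it. The young libraries were shallower, and the parts of depth and of this choice in the SDs were not tested.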
